A study of Mus musculus with 5 samples.

Results

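Intraepithelial T cells are lymphocytes that live between the epithelial cells of the gut lining. They carry the CD3 complex and CD8, store granzymes in cytotoxic granules, and are held in place when the integrin CD103 binds E-cadherin on epithelial cells. In the mouse small intestine they are usually divided into a natural type, in which CD8 is a pair of alpha chains and adaptors otherwise known from natural killer cells (Fcer1g, Tyrobp) are common, and an induced type with CD8 alpha and beta chains and markers of conventional T cells such as Thy1, Cd5, Cd6 and Cd28.

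The droplets described here were captured in a single-cell RNA sequencing study of the ileal epithelium (distal small intestine) in C57BL/6 mice, all between 8 and 12 weeks old. Sham surgery (3 libraries) was compared with small bowel resection, the surgical removal of part of the small intestine (2 libraries). The labels name neither the number of mice in a library nor the time since surgery, so the p-values measure the spread between these libraries, which may be technical. Members were selected on measured values. A droplet was counted as a T cell droplet if it had at least 500 detected genes, at most 20% mitochondrial UMIs (unique molecular identifiers, 1 per captured transcript) and a UMI for at least 3 of 9 genes: Cd3e, Cd3g and Cd3d (CD3 chains), Cd8a (CD8 alpha), Cd7, the granzymes Gzma and Gzmb, the granule protein Nkg7, and the chemokine Ccl5. Of 19404 deposited cells 18955 passed the quality filters, and 703 met the rule. Because the rule read these 9 genes, their levels are given as a description, and no test of T cell droplets against other cells was made.

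Summed over the libraries, the number of rule genes seen in a cell had 2 ranges. The number of kept cells fell from 11919 with none of the 9 genes to 5226 with 1, 1107 with 2 (just outside the rule), 203 with 3 (just inside) and 78 with 4, and then rose to 116 at 7 genes. Among the 703 members, 281 (39.97%) had 3 or 4 rule genes and the other 422 had 5 to 9. Resection 2 held 221 of these 422, so pooled shares of this set rest largely on that library. In sham 1 no second rise was clear. At exactly 3 rule genes, 89.7% of droplets had a UMI of Ccl5 and 68.5% of Gzma, while 7.39% had a UMI of Cd3e and 24.1% Cd3g. At exactly 2, just outside, the shares for Ccl5 and Gzma were 80.9% and 66.4%. These 2 transcripts were also seen in 20.4% (Ccl5) and 12.1% (Gzma) of all cells outside the rule, whereas Cd3g was seen in 1.6% of them.

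**Figure D1:**
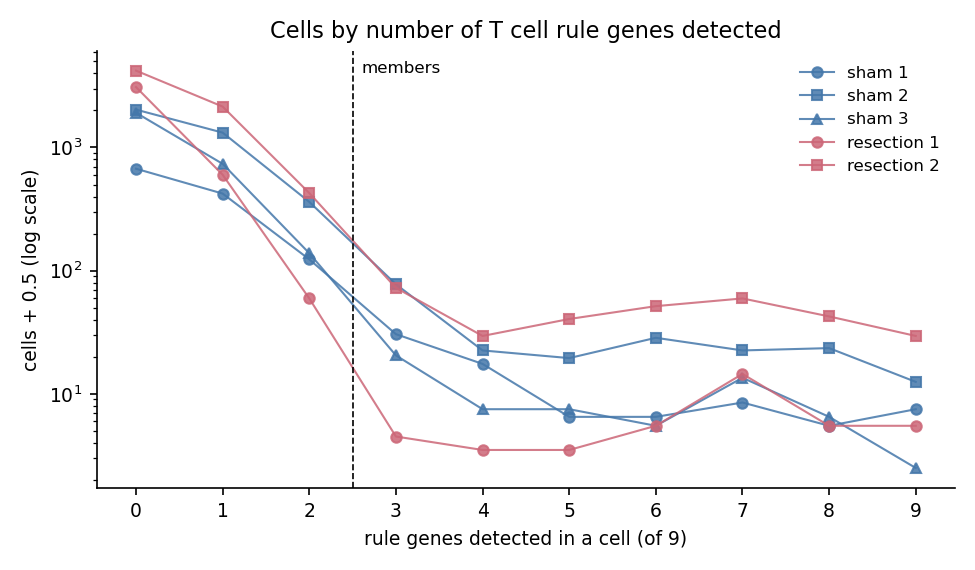
Number of kept cells (log scale, 0.5 added) by how many of the 9 rule genes had a UMI, 1 line per library; the dashed line marks the rule. In the sum over libraries the counts fall from 0 to 4 genes and reach a second peak within the range of 5 to 9 genes (422 in all). Sham 1 shows no clear second rise (17 cells at 4 genes, then 6, 6, 8, 5 and 7), and resection 2 holds 221 of the 422.

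Genes outside the rule separated the 2 sets as well. A list of T cell receptor signalling genes (20 in the gene table, among them Ptprc, the CD45 phosphatase, and Lck, the kinase that starts CD3 signalling) gave a mean of 2.01 UMIs in 2000 randomly drawn UMIs per droplet in the 5 to 9 set. The mean was 0.512 in the 3 or 4 set and 0.0455 in all other kept cells. By library, the mean in the 5 to 9 set was 2.03, 2.27 and 1.48 (sham 1, 2 and 3) and 2.00 and 1.96 (resection 1 and 2).

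Droplets with 3 or 4 rule genes were more often rich in transcripts of Paneth cells, the crypt cells that secrete defensins and lysozyme. Of these 281 droplets 102 (36.3%) had over 5% of their UMIs on a list of 9 Paneth genes, against 29 of 422 (6.87%) in the 5 to 9 set and 5.74% of other cells. The pattern was widest in sham 1, where 32 of 47 droplets with 3 or 4 rule genes passed 5% and their median depth was 19605 UMIs, compared with 5402 in the other cells of that library. Over all members the Paneth list took 28.8, 18.4 and 1.71% of UMIs in sham 1, 2 and 3, compared with 14.6 and 4.12% in resection 1 and 2. The part these transcripts play in any count below that rests on all 703 members was not tested, and values for the 5 to 9 set are given beside some of them only.

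**Figure D2:**
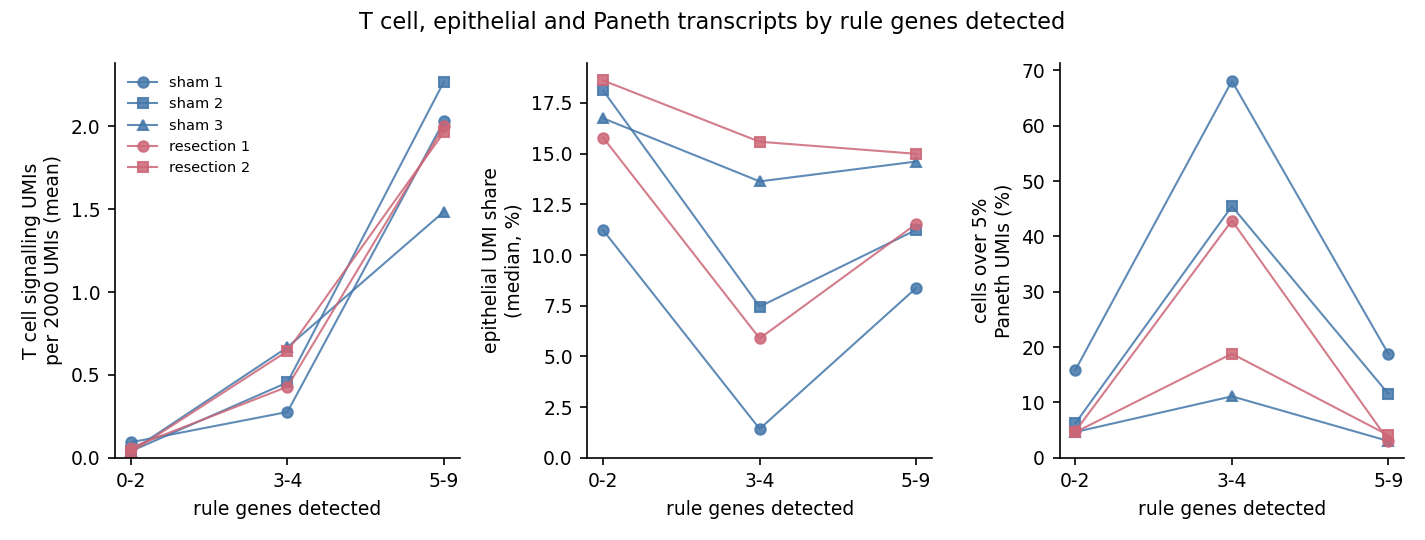
Mean T cell signalling UMIs per 2000 UMIs (left), median share of UMIs on pan-epithelial and enterocyte genes (middle) and share of cells with over 5% Paneth UMIs (right), by rule genes detected, 1 line per library. T cell signalling UMIs are highest at 5 to 9 genes, and Paneth-rich droplets peak at 3 or 4 genes in all 5 libraries.

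The members made up 6.10% (79 of 1296 kept cells), 5.19% (203 of 3914) and 2.11% (60 of 2848) of sham 1, 2 and 3, and 1.03% (39 of 3792) and 4.53% (322 of 7105) of resection 1 and 2. The exact 95% binomial intervals were 4.86 to 7.54, 4.51 to 5.93, 1.61 to 2.70, 0.732 to 1.40 and 4.06 to 5.04%, and cover counting error only. The libraries of a group thus stood further apart than counting error allows. Sham libraries had a mean share of 4.46% ± 2.09 (SD, n = 3) and resection libraries 2.78% ± 2.48 (SD, n = 2). The difference, −1.68 points, did not exceed the spread between libraries (exact two-sided permutation test, p = 0.5), and without resection 1 it was 0.0690. With 10 ways to pick 2 of 5 libraries the smallest possible p is 0.1, so neither this test nor those of the epithelial share and of the Cd8b1 to Cd8a ratio, given further on, could reach 0.05.

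Depth and the 3 or 4 set moved with the shares. When every cell was drawn down to 2000 UMIs before the rule was applied, members were 1.77, 2.91 and 1.16% in the sham libraries, with 0.765 and 3.22% for resection. Droplets with 5 to 9 rule genes were 2.47, 2.66 and 1.16% of sham and 0.844 and 3.11% of resection cells. In each form resection 1 was the lowest library. Sham 1 and resection 1 together also stood apart from the other 3 in mitochondrial share (medians of 13.4 and 11.7% in the other cells, against 7.24 to 9.13%), and they are called the first set here, the other 3 the second set. Within those sets the difference in the share of members was −5.07 points (resection 1 minus sham 1) and 0.885 points (resection 2 minus the mean of sham 2 and sham 3).

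The CD3 chains are encoded side by side in the GRCm38 genome, with Cd3g at chr9:44969572-44980431, Cd3d at chr9:44981786-44987339 and Cd3e at chr9:44998740-45009627. In members Cd3g gave 50.9, 218 and 199 CPM (counts scaled to a fixed total of UMIs per library) in sham 1, 2 and 3, compared with 249 and 321 in resection 1 and 2, and between 0.675 and 4.31 CPM in other cells. It was seen in 91.0% of the 5 to 9 set, Cd3d in 68.7% and Cd3e in 49.8%. Of the cytotoxic proteases, Gzma took 1659, 4680 and 2887 CPM of the 5 to 9 set in the sham libraries, with 3566 and 4035 for resection, and Gzmb 176, 431 and 352 against 367 and 293. Sham 1 was the lowest library for Cd3g, Gzma and Gzmb, in the set as well as in all members. Per 100 UMIs of the CD3 chains, Gzmb stood at 36.8, 49.7 and 45.1 in the sham libraries, with 46.4 and 34.5 for resection, and the sham and resection libraries overlapped.

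The coreceptor transcripts in these selected droplets were those of CD8 alpha with little CD8 beta or CD4. The rule reads Cd8a, the granzymes, Nkg7 and Ccl5, and it reads neither Cd8b1, Cd4 nor Foxp3. It thus favours droplets with Cd8a, and the shares describe the members, not all T cells of the tissue. Cd8a (chr6:71373427-71379173), a rule gene, was detected in 265 of 703 members, and its neighbour Cd8b1 (chr6:71322788-71337494), the beta chain and no rule gene, in 33, of which 19 also had Cd8a. Cd4 was seen in 1 droplet. Foxp3, the factor of regulatory T cells, was seen in 0 of 703, which allows a share of up to 0.427% with a UMI (3 counts of the total). Cd8b1 and Cd8a gave 8 and 42 UMIs in sham 1, 10 and 89 in sham 2, 5 and 23 in sham 3, 0 and 52 in resection 1, and 27 and 268 in resection 2. As a log2 ratio of Cd8b1 to Cd8a (0.5 added to each count) this was −2.32, −3.09 and −2.10 with sham surgery, compared with −6.71 and −3.29 in resection. Both resection libraries lay below all sham libraries, with a difference of −2.50 (exact two-sided permutation test, p = 0.1, the smallest possible). The rule reads Cd8a and not Cd8b1, so it bears on this ratio. Its part in the difference was not tested, and the ratio is a description. The resection 1 value rests on 0 Cd8b1 UMIs and thus on the added count, and without it the difference was −0.785. Within the second set of libraries the difference was −0.69.

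Pooled over the libraries, the shares of some subset genes lay apart between droplets with Cd8b1 and those with Cd8a alone, and those of others lay closer. The intervals cover counting error in the pooled droplets and are no test. In the 5 to 9 set, 27 droplets had a Cd8b1 UMI and 220 had Cd8a and no Cd8b1. Resection 2 gave 15 of the 27 and 119 of the 220. Fcer1g, the signalling adaptor, was found in 4 of the 27 (14.8%, exact 95% interval 4.19 to 33.7%) and in 167 of the 220 (75.9%, 69.7 to 81.4%). Tyrobp (DAP12), a second adaptor of this kind, was found in 14.8 and 52.7%. Ikzf2, which encodes the transcription factor Helios, was found in 29.6 and 77.3%. Thy1, a surface protein of conventional T cells, went the other way, in 9 of 27 (33.3%, 16.5 to 54.0%) against 11 of 220 (2.52 to 8.77%). Cd5, Cd6 and Cd28 were each found in 2 of the 27, against 0, 3 and 3 of the 220, with intervals that overlapped. Cd160, a receptor of natural killer type, was found in 48.1 and 32.3%, also with overlapping intervals. Klrd1, another receptor of this type, was found in 37.0% (19.4 to 57.6%) and 68.6% (62.1 to 74.7%), with intervals that did not overlap. Itgae, the CD103 chain, was found in 22.2 and 39.1%, with overlapping intervals. Gzma was found in 81.5 and 78.6% and Gzmb in 63.0 and 61.8%, but both are rule genes, so nothing is read from these shares. The median depth of the 2 kinds of droplet was 4967 and 5346.5 UMIs.

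Taken singly, the libraries hold few droplets with Cd8b1, and resection 1 holds none in this set. Fcer1g was seen in 2 of 5, 0 of 5 and 0 of 2 droplets with Cd8b1 in sham 1, 2 and 3 and in 2 of 15 in resection 2. In droplets with Cd8a and no Cd8b1 it was seen in 7 of 15, 36 of 50 and 10 of 15 in sham 1, 2 and 3 and in 17 of 21 and 97 of 119 in resection 1 and 2. For Fcer1g the 2 kinds lay close together in sham 1 and further apart in sham 2 and resection 2, and the 2 droplets of sham 3 allow no reading. Ikzf2 was seen in 3 of 5 droplets with Cd8b1 against 12 of 15 without in sham 1. In sham 2 this was 1 of 5 against 39 of 50, and in resection 2 it was 4 of 15 against 93 of 119. Thy1 was seen in 2 of 5 against 2 of 15, 3 of 5 against 2 of 50, and 3 of 15 against 7 of 119 in these libraries. The other genes were not split by library. Droplets of a library share its free RNA and its preparation and are not replicates, so these shares are a description with counting error only.

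Receptors of natural killer type were common. Klrd1 (CD94, partner of the NKG2 receptors) was detected in 43.1% of members and 62.1% of the 5 to 9 set, against 1.05% of other cells. Hcst (DAP10), the adaptor of NKG2D, was detected in 46.4% of the 5 to 9 set, Cd160 in 31.8% and Cd96 in 20.6%. Klrk1, NKG2D itself, was seen in 3.32% of that set and in 4.46% of other cells, a share at the background level. Of 23 such receptors measured, 9 were higher in members than in other cells in all 5 libraries. The checkpoint receptors Pdcd1 (5 UMIs in all members), Havcr2 (2) and Tigit (0) were at or near 0, while Lag3 was seen in 19.4% of the 5 to 9 set. Ncr1, a defining receptor of natural killer cells and some innate lymphoid cells, had 5 UMIs in 3 members and none in the 5 to 9 set, and Eomes had 2.

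Granule and effector genes outside the rule were uneven. Srgn (serglycin, the proteoglycan that packs granzymes) was detected in 58.3% of the 5 to 9 set, Ctsw (cathepsin W) in 41.7% and Cst7 (cystatin F) in 24.6%. Ctsc and Lamp1, which serve lysosomes in many cells, were seen in 39.1 and 69.4% against 30.1 and 69.3% of other cells. Prf1, the pore-forming perforin, gave 2 UMIs in all 703 members, next to 998 UMIs of Gzmb. Among cytokines Ifng was seen in 1.85% of members (16 UMIs) and Il17a in 0.427% (4 UMIs), and Il22 and Il10 had 0 UMIs. Chemokine transcripts were more frequent, with Xcl1 in 25.6% and Ccl4 in 25.4% of the 5 to 9 set.

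Several genes of tissue residence were detected well above their share in other cells. Itgae, the CD103 chain (chr11:73090583-73147446), was detected in 32.7% of the 5 to 9 set, its partner Itgb7 in 17.1%, Selplg in 34.1%, Cd69 in 14.9%, Cxcr6 in 10.4% and the gut homing receptor Ccr9 in 11.4%. In other cells the shares of these 6 genes lay between 0.0493% (Cxcr6) and 0.334% (Ccr9). Of 24 homing genes measured, 20 had a UMI in members, and 13 were higher in members than in other cells in all 5 libraries. The 4 that were higher in no library had 0 UMIs in members. S1pr5 and Ccr6 had 0 UMIs in members, and S1pr1 and Ccr7 had 2 each. Among transcription factors Ikzf2 was seen in 64.5% and Nr4a2, induced by antigen receptor signals, in 49.1%, against 0.762 and 2.59% of other cells. Tbx21 (T-bet) was seen in 6.40% and Runx3 in 12.6%. Lef1 and Zfp683 had 0 UMIs. Id3 was seen in 57.1% of the 5 to 9 set and 61.5% of other cells, a share no higher in the T cell droplets.

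**Figure D3:**
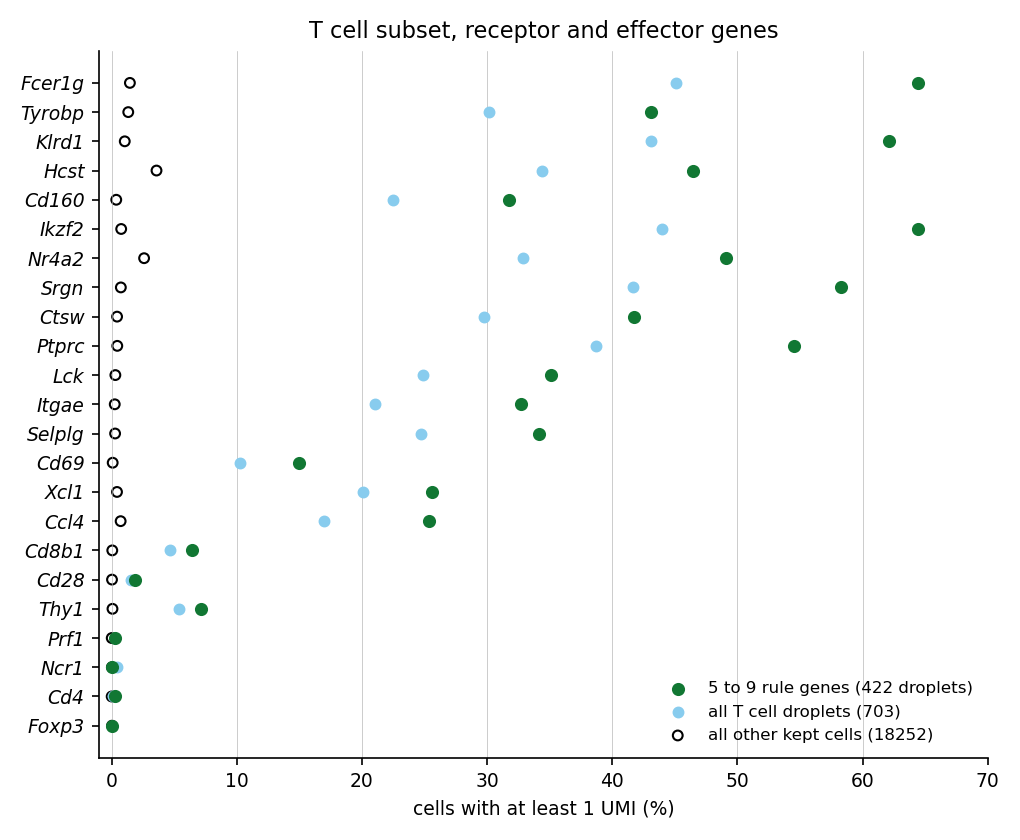
Share of cells with at least 1 UMI of each gene, for the 422 droplets with 5 to 9 rule genes (green), all 703 T cell droplets (blue) and the 18252 other kept cells (open). Fcer1g, Klrd1 and Ikzf2 exceed 60% in the first set, and Prf1, Ncr1, Cd4 and Foxp3 are at or near 0.

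Markers of other leukocytes were sparse. Of the B and plasma cell list (7 genes in the table), the defining Cd79a and Ms4a1 gave 3 and 1 UMIs in members, and Cd79b was seen in 4.41%. Mast cell proteases were at or near 0 (Mcpt1, 3 UMIs). In the myeloid list Lyz2 reached 91.3 CPM in members of sham 1, where Paneth transcripts were highest, and at most 12.8 CPM in the other 4 libraries. Kit, the stem cell factor receptor of mast cells and some lymphocytes, was seen in 38 of the 422 droplets of the 5 to 9 set and in 0.937% of other cells. Stromal and endothelial genes summed to between 0.571 and 4.56 CPM per library.

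Epithelial RNA was common in these droplets. The pan-epithelial and enterocyte lists (35 genes) took a median of 12.8% of UMIs in the 5 to 9 set, with the central 80% of droplets between 3.56 and 20.7%, against 16.9% in other cells. By library, that median was 8.38, 11.2 and 14.6% in the sham libraries, with 11.5 and 15.0% for resection, next to 11.2, 18.1 and 16.7% and 15.8 and 18.6% in the other cells of the same libraries. Epcam, the epithelial adhesion molecule, had a UMI in 96.9% of the 5 to 9 set and in 99.2% of other cells, Krt8 in 98.8%, and Fabp6, the ileal bile acid binding protein, in 99.5%. Of the 422 droplets 13.7% had under 5% epithelial UMIs. The source of these epithelial UMIs was not tested, and no doublet caller was run.

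Summed per list, pan-epithelial and enterocyte levels in the 5 to 9 set were below those of the other cells in each library. The sum of the pan-epithelial list was 70.4, 69.0 and 86.8% of its level in the other cells in sham 1, 2 and 3, compared with 89.98 and 83.8% in resection 1 and 2. For the enterocyte list the values were 70.5, 64.9 and 85.8% in the sham libraries, with 95.8 and 89.2% for resection. Secretory cell lists varied by library. The goblet cell list stood at 136, 299.8 and 28.02% of its level in other cells for sham 1, 2 and 3, and at 184 and 148% for resection 1 and 2. The Paneth list stood at 133, 213 and 30.0% for the sham and 24.4 and 97.5% for the resection libraries. The epithelial ligands and partners of these lymphocytes, among them Cdh1 (E-cadherin), Ccl25 (the Ccr9 ligand) and Il15 (a T cell survival cytokine), were measured in the same droplets, 11 of 12 with a UMI in members. Ccl25 had a UMI in 85.5% of the 5 to 9 set and 90.8% of other cells, and Cdh1 in 64.5 and 66.8%.

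Summed over all members, epithelial UMIs took 2.88, 8.93 and 13.5% in sham 1, 2 and 3, compared with 7.80 and 14.3% in resection 1 and 2. The groups overlapped. The mean was 8.45% ± 5.34 for sham (SD, n = 3) and 11.0% ± 4.59 for resection (SD, n = 2), with 2.596 points between them (exact two-sided permutation test, p = 0.6). Without sham 1 the difference was −0.188 points and without resection 2 it was −0.650.

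Resection was then compared with sham surgery on the summed counts of all members per library, with edgeR's quasi-likelihood test over 7653 genes (Benjamini-Hochberg adjustment, threshold 0.05). No gene passed (0% of genes tested), and 232 had an unadjusted edgeR p under 0.05, of which 131 (1.71%) were higher and 101 (1.32%) lower after resection. Without sham 1, 2 genes passed. DESeq2 called 6 genes (0.0784%), each with a higher estimate after resection, and edgeR with the library set as a term called 11 (0.144%), which include those 6. The 6 were Apoa4, Apoc3, Lct, Fabp1, Slc2a2 and Cyp3a11, all genes of absorptive enterocytes or of drug metabolism and none of T cells. CPM values in this part are scaled with the TMM factors of the fit, so that they match the fold changes. On that scale 9.24% of genes had both resection values above the 3 sham values and 7.79% had both below.

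Several enterocyte genes in the T cell droplets had estimates near those in the other cells. Apoa4, an apolipoprotein of fat absorption, stood at 348, 355 and 156 CPM in sham 1, 2 and 3, compared with 4616 and 1884 in resection 1 and 2. The lower resection library had over 5 times the level of any sham library. The log2 fold change was 3.51 (SE 0.60, edgeR adjusted p = 0.280) in members and 3.31 (SE 0.63) in the other kept cells. Apoc3 stood at 128, 197 and 125 CPM with sham surgery, compared with 865 and 759 with resection, a log2 fold change of 2.44 (SE 0.39, edgeR adjusted p = 0.217), against 2.52 (SE 0.43) in other cells. Fabp1, a fatty acid binding protein of the proximal intestine, went from 60.5, 203 and 359 CPM to 1816 and 1174 CPM. Lct, the lactase gene, went from 44.5, 27.7 and 8.68 CPM to 310 and 118. Neither gene had groups that overlapped.

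The lowest adjusted p of the comparison, 0.0946 by edgeR, belonged to Slc2a2 (the glucose transporter GLUT2, log2 fold change 3.19, SE 0.41) and Cyp3a11 (a drug-metabolizing cytochrome, 4.08, SE 0.57). Ada (adenosine deaminase) and Leap2 (a peptide of the liver and small intestine) had log2 fold changes of 3.26 (SE 0.67) and 2.32 (SE 0.54) and again no overlap between groups. Of the enterocyte list 17 of 21 genes had a higher and 4 a lower estimate, with a median of 0.82 against −0.03 over all genes tested. The same list had a median of 0.91 in other cells. Fabp6 stood at 11210, 13444 and 19047 CPM in sham and at 1614 and 9963 in resection (log2 fold change −1.33, SE 0.89), with resection 1 far below every other library.

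Among the genes with the lowest p in the other direction were keratins and a tight junction gene. Krt7 stood at 70.4, 66.3 and 67.3 CPM with sham surgery, compared with 22.7 and 24.9 with resection, with narrow groups that did not overlap (log2 fold change −1.49, SE 0.31, edgeR adjusted p = 0.576). Cldn4, a claudin, stood at 206, 58.0 and 48.8 CPM with sham surgery, compared with 26.4 and 18.3 with resection. Herpud1 (endoplasmic reticulum stress response), Rhob (a small GTPase), Krt18 and Suox (sulfite oxidase) had log2 fold changes between −1.45 and −0.93, and none passed the adjustment. In other cells the estimates were −1.20 for Krt7, −2.12 for Cldn4 and −0.29 for Herpud1.

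Of the T cell genes, Xcl1 alone was among the 11 calls of the fit with the library set. Of 79 genes tested from the 7 T cell lists, 11 (13.9%) had both resection libraries above all sham libraries and 5 (6.33%) had both below, next to the 9.24 and 7.79% of all genes. The 5 were Lat and Thy1 (receptor signalling list), Lamp1, Ifngr1 (interferon gamma receptor) and Rora, a nuclear receptor, with log2 fold changes from −2.37 (Rora) to −0.28 (Lamp1). The 11 were Xcl1, Ccl3, Ccl4, Itgae, Ikzf2, Ptprc, Zap70, Rhoh, Cd27, Cst7 and Klrk1. Klrk1 and Lamp1 were not seen clearly more often in the 5 to 9 set than in other cells. The counts thus do not rest on T cell transcripts alone. Xcl1, the chemokine lymphotactin (chr1:164931644-164935527), stood at 6.17, 46.4 and 49.9 CPM in sham 1, 2 and 3, compared with 117 and 143 in resection 1 and 2. Its log2 fold change was 1.90 (SE 0.56), and edgeR gave an adjusted p = 0.9997 and an unadjusted p = 0.00646 across all genes. With the library set as a term its adjusted p was 0.0477, and over the 19 alternatives the edgeR or DESeq2 adjusted p ranged from 3.63e-08 to 0.99999. In the 5 to 9 set the estimate was 1.71. Per 100 UMIs of the CD3 chains, Xcl1 gave 2.63, 12.2 and 22.3 UMIs in the sham libraries, with 29.7 and 36.9 for resection. The CD3 chains are rule genes, so these values are a description. With libraries scaled to the UMIs of the CD3 chains and the signalling list, the log2 fold change of Xcl1 was 1.47 (edgeR adjusted p = 0.240).

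The macrophage inflammatory chemokines Ccl3 (chr11:83647844-83649355) and Ccl4 (chr11:83662584-83664683) lie near the rule gene Ccl5 (chr11:83525778-83530518). Ccl3 stood at 4.94, 5.80 and 4.34 CPM with sham surgery, compared with 15.1 and 14.7 with resection, a log2 fold change of 1.52 (SE 0.43, edgeR quasi-likelihood, unadjusted p = 0.00527). Ccl4 stood at 16.1, 43.8 and 15.2 CPM with sham surgery, compared with 68.0 and 53.6 with resection (1.20, SE 0.45; edgeR quasi-likelihood, unadjusted p = 0.0234). Neither passed the adjustment, and Ccl3 rests on 74 UMIs in all members. The promoter windows of Xcl1 and Ccl3, chemokine genes with non-overlapping groups in the same direction, are shown. They come from a RefSeq table (GRCm38.p6, 250 bases up to the transcript start, gene strand). Ccl4 had such groups too, but its window was not looked up. Capitals mark TTTCC, the reverse complement of GGAAA, the core of NFAT sites, through which T cell receptor signals act on many cytokine genes.
Xcl1, chr1:164935523-164935772, minus strand: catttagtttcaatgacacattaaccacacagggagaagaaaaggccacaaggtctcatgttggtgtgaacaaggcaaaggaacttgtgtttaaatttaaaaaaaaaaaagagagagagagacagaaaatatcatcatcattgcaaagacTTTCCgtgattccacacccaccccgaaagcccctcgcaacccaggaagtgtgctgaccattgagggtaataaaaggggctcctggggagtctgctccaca
Ccl3, chr11:83649379-83649628, minus strand: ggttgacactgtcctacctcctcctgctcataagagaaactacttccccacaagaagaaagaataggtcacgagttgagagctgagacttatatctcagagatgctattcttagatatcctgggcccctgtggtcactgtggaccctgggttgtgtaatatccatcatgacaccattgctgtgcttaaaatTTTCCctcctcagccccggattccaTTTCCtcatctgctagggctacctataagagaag
Searching both strands, GGAAA was found 1 time in the Xcl1 window and 2 times in the Ccl3 window, and TGANTCA, the AP-1 site, 0 times in either. GGAAA was held by 55.6% and TGANTCA by 6.75% of all 32851 windows of this length, and a match of letters is a description, not a site.

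Itgae and Ikzf2 were further T cell genes with groups that did not overlap. Itgae stood at 14.8, 20.6 and 11.9 CPM with sham surgery, compared with 68.0 and 27.9 with resection (log2 fold change 1.45, SE 0.45), and Ikzf2 at 88.9, 77.9 and 48.8 against 208 and 111 (1.13, SE 0.38). For both, resection 1 was the highest library, and without it the estimates were 0.79 for Itgae and 0.63 for Ikzf2. In the 5 to 9 set they were 0.84 and 0.55. Fcer1g (27.2, 131 and 68.4 CPM in sham, 117 and 166 in resection) and Klrd1 (37.0, 104 and 83.5 against 56.6 and 97.6) had groups that overlapped.

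**Figure D4:**
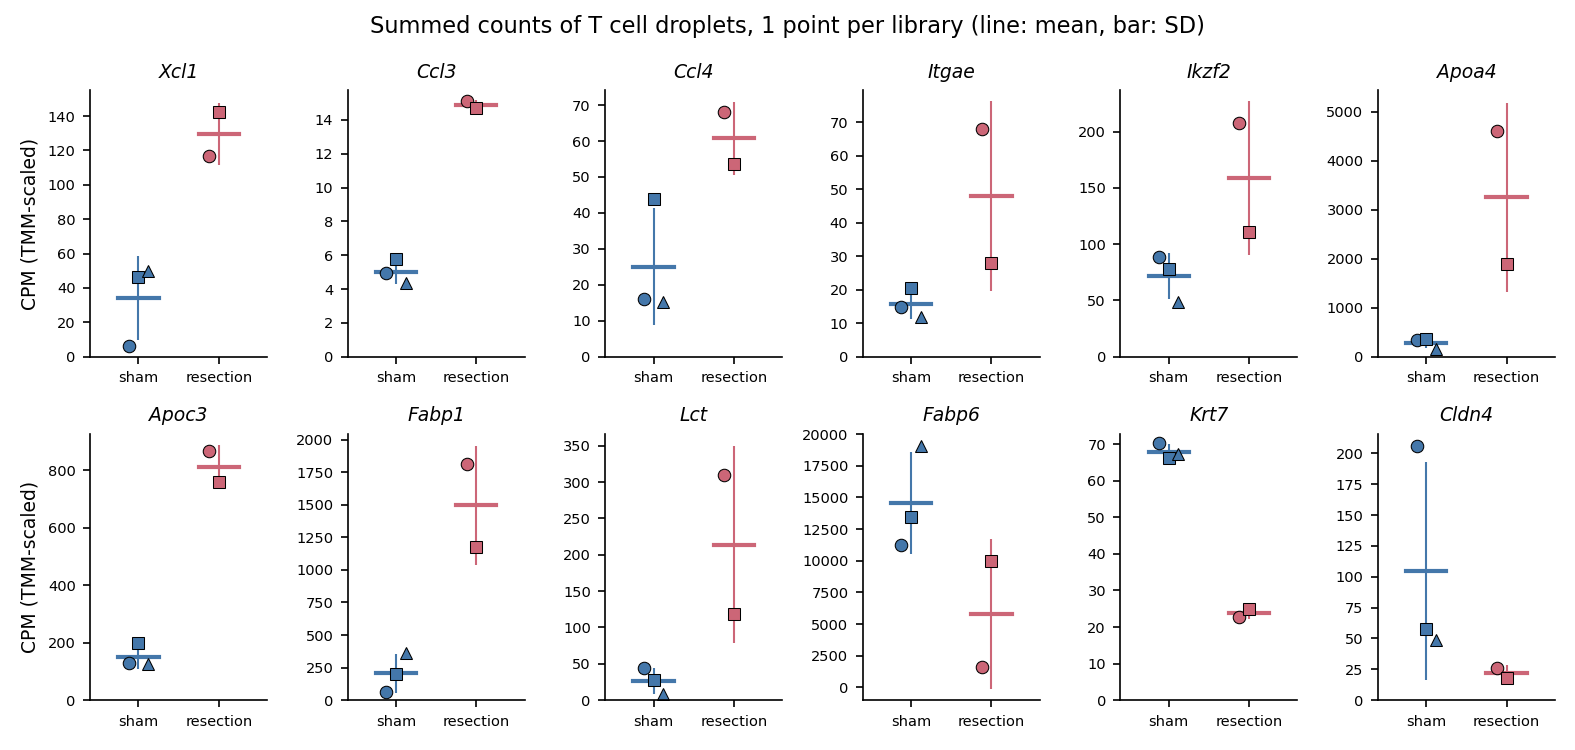
TMM-scaled CPM of 12 genes in the summed T cell droplets, 1 point per library (circle, square and triangle for replicates 1, 2 and 3), with the group mean (line) and SD (bar). The resection points lie above the sham points for Xcl1, Ccl3, Ccl4, Itgae, Ikzf2, Apoa4, Apoc3, Fabp1 and Lct, and below them for Fabp6, Krt7 and Cldn4.

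The T cell lists had medians a little above 0 that depended on how the droplets were scaled. Of 15 receptor signalling genes tested 12 had a higher and 3 a lower estimate (median 0.39), of 9 natural killer type receptors 8 and 1 (0.53), of 13 homing genes 10 and 3 (0.26), of 16 transcription factors 10 and 6 (0.34), of 11 cytokine and receptor genes 7 and 4 (0.16) and of 8 granule genes 5 and 3 (0.05). The 0.53 was the estimate of Klrk1, whose share in these droplets was at the background level. Of 7 subset and lineage genes 5 were higher and 2 lower (0.51, and 0.15 when scaled to T cell UMIs). With 1 library left out, the medians ran from 0.23 to 0.70 for signalling, 0.21 to 0.90 for natural killer type receptors and 0.11 to 0.56 for homing. They ran from 0.0083 to 0.89 for transcription factors, 0.03 to 1.23 for cytokines, −0.19 to 0.46 for granule genes and 0.19 to 1.03 for subset genes. None of these genes passed the adjustment. When libraries were scaled to the UMIs of the CD3 chains and the signalling list, the median of all genes shifted by −0.48. That scaling sets the signalling list near 0 by construction (−0.03). The medians of the next 5 lists were 0.13, −0.11, −0.11, −0.20 and −0.35 in the same order. In the 5 to 9 set those of all 6 were −0.07, −0.02, 0.07, −0.23, 0.78 and −0.20. The Paneth list, whose 9 genes all had lower estimates (median −1.66), moved with these members. Its median was −0.39 without sham 1 and −3.14 without resection 1, and its part in the medians of the T cell lists was not tested.

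A direct test asked whether resection changed a gene differently in T cell droplets and in the other kept cells (10975 genes, edgeR with the library as a block). No gene passed (0%), with 365 at an unadjusted p under 0.05. For enterocyte genes the difference was −0.0020 (SE 0.22) for Apoa4, 0.02 (SE 0.21) for Lct, 0.07 (SE 0.19) for Fabp1 and −0.11 (SE 0.18) for Apoc3. It was −0.65 (SE 0.43) for Slc2a2 and 0.93 (SE 0.57) for Ada. For Xcl1 it was 1.51 (SE 0.55) and for Ikzf2 1.46 (SE 0.44), with an edgeR adjusted p of 0.9999 each. For the 5 to 9 set, a choice made after the droplets had been seen, 38 of 11203 genes passed (0.339%). In that fit the 281 droplets with 3 or 4 rule genes were counted with the other cells. The change after resection was higher in the 5 to 9 set than in this mixed group for 6 genes and lower for 32. These signs concern the change and not the level of a gene in the set. Xcl1 was among the 6 (1.95, edgeR adjusted p = 6.63e-06), with Fcgbp, AW112010, Gm26870 and 2 rule genes, from which nothing is read. Over all members, 32 genes passed without sham 3 and 3 without resection 2. Of the 38, 16 were defensin genes or members of the Paneth list, such as Lyz1, Mmp7 and Ang4. That count goes by symbols beginning with Defa and by the list. It leaves out called genes with provisional symbols, such as Gm15284, Gm15299 and AY761184, so it may be too low.

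**Figure D5:**
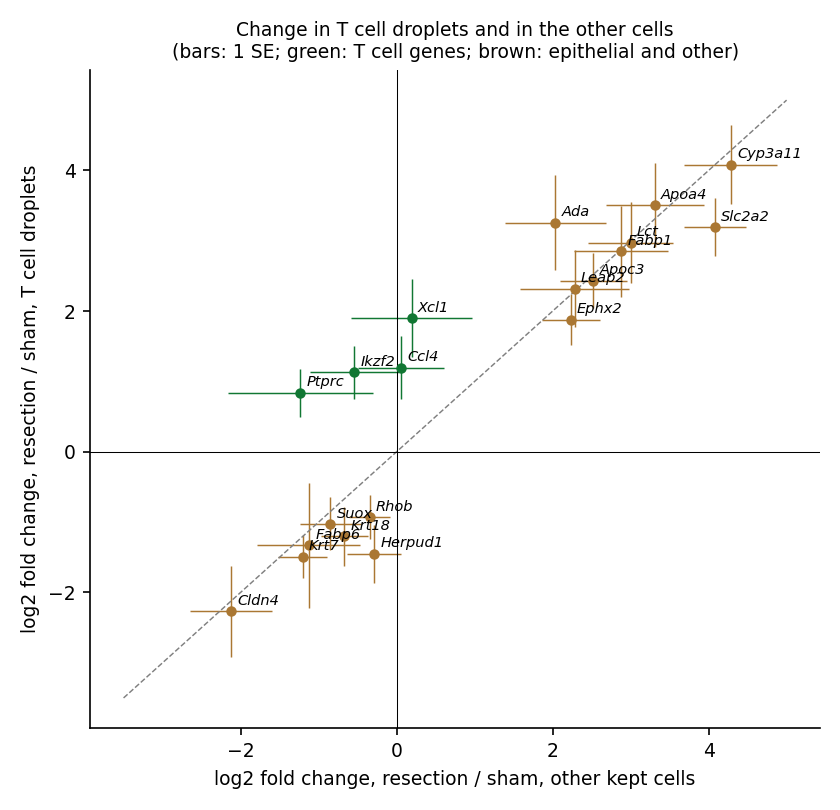
Log2 fold change after resection in T cell droplets (vertical axis) against that in the other kept cells (horizontal axis), with 1 SE; the dashed line marks equal change. Enterocyte genes such as Apoa4 (3.51 and 3.31) lie near the line, and the T cell genes Xcl1, Ccl4, Ikzf2 and Ptprc lie above it.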

How the data were processed

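Single-cell libraries (10x Chromium, 3' v2 chemistry, per the labels) from 3 sham and 2 resection samples were deposited by the authors as raw UMI counts per gene and cell, made with Cell Ranger per the labels. The build was mm10 (GRCm38), per the submitters' processing notes. The table holds 27998 genes; of 56 symbols on several rows, the row with the lowest identifier was kept. T cell receptor constant chain genes were not analysed here. Deposited totals ran from 11749028 to 41281731 UMIs per library.

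Member counts were summed per library, since cells are not replicates, and tested with edgeR 4.0.16 (quasi-likelihood, TMM, filterByExpr; SE is the log2 fold change divided by the root of F) in R 4.3.3, with DESeq2 1.42.0 as an alternative. Scripts were tested on simulated data. Single values per library were compared by exact permutation. Intervals are exact binomial (Clopper-Pearson, 95%); the limit for a count of 0 takes 3 counts of the total. No doublet caller was run. Members and gene lists were chosen with earlier results of these data known, as were the library sets, which are not in the labels. Named genes were the rule genes, the 4 of highest mean CPM per list, a fixed set, and for resection the 6 higher and 6 lower genes of lowest p (mean level 50 CPM or more, no overlap between groups); the overlap was read on TMM-scaled CPM, a scale chosen after the data were seen. Other genes named, and both promoters, were chosen after their values were seen. Barcodes shared between libraries numbered 197, of which 11 were a member in 1 library and 0 in 2. Alternatives covered scaling, filters, membership, depth, mitochondrial share, the replicate number as a block and leaving out each library.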

Additional observations from a re-analysis of the deposited data

How the results depend on the processing

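The difference in the share of T cell droplets changed sign with membership on thinned counts (0.0453 points) and without resection 1 (0.0690), and ran from −3.43 to 0.0690 points when 1 library was left out. That in the epithelial UMI share changed sign without sham 1 (−0.188) and without resection 2 (−0.650), and ran from −0.650 to 5.84. The difference in the log2 ratio of Cd8b1 to Cd8a stayed negative in all 14 alternatives, from −4.21 to −0.785 with 1 library left out. With membership on thinned counts it was −1.79 (exact two-sided permutation test, p = 0.4). There sham 3, with 0 Cd8b1 UMIs, stood at −5.21, below resection 2 at −3.68. Against 0 genes called for resection, DESeq2 called 6, no filter on low counts 46, the library set as a term 11, droplets up to the 90th percentile of UMIs 4, droplets without over 5% Paneth UMIs 3, scaling to T cell UMIs 43, and leaving out 1 library 0 to 2. Against 0 for the difference between T cell droplets and other cells, no filter gave 18, at least 4 rule genes 5, at least 5 rule genes 38, droplets without over 5% Paneth UMIs 5, and leaving out 1 library 0 to 32, the highest without sham 3. Where members were narrowed by rule genes or Paneth UMIs, the droplets left out were counted with the other cells. The replicate number as a block gave 152 calls for resection. Same-numbered libraries had deviations correlated at 0.461 (number 1) and 0.124 (number 2), and sham 3 with resection 2 had 0.399. With 2 resection libraries, the values for resection 1 and resection 2 mirror each other in sign, so they cannot decide on a pairing. Nothing in the labels pairs the libraries. The causes were not tested. The sets limited to 5 to 9 rule genes, to few Paneth UMIs and to T cell scaling were chosen after seeing the data. Resection 1 had 39 members, the fewest.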
